A study of Mus musculus with 59 samples.

Results

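The effect of an shRNA against Smarca5 on CTCF occupancy was examined in mouse fibroblasts that were being reprogrammed with added Ctcf, on day 10. CTCF sites came from ChIP-seq, the sequencing of DNA that is precipitated with an antibody, and each group had 1 deposited list of peaks. A site was counted as kept when a peak of the list without the shRNA overlapped a peak of the list with it by at least 1 bp, as absent when no peak of the shRNA list overlapped it, and as new when a peak of the shRNA list overlapped none of the other list. The 2 lists together covered 52531 regions, of 105010 in all 16 lists of the series, and came from 3 of its 59 samples.

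The group with the shRNA was made of OG2 mouse embryonic fibroblasts, which carry a green fluorescent reporter of Oct4, that had received retroviruses for OSKM (Oct4, Sox2, Klf4 and c-Myc), for Ctcf and for an shRNA against Smarca5. The comparison group had received OSKM and Ctcf without that shRNA. A further group of the same day had OSKM alone. All 3 groups thus carried OSKM, were grown in embryonic stem cell medium with vitamin C, and were precipitated with a CTCF antibody. The labels name no control shRNA and no sorting for these groups. Other groups served only to describe the sites. Among them were E14 embryonic stem cells (ESCs) that were wild type, Smarca5 knockout or had overexpressed tagged SMARCA5. The rest were day 0 and sorted reprogramming cells that had a luciferase shRNA (the control) or a Ctcf shRNA. The lists of sorted Thy1+, SSEA1- Thy1- and SSEA1+ cells each pool samples of different days, so none stands for a single day.

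The shRNA group had 1 ChIP sample, and the comparison group had 2 samples with 1 list between them. No test between the groups could therefore be made, and the Wilson 95% intervals given after shares cover counting error only. Peak lists do not measure mRNA or protein, so the knockdown of Smarca5 and the level of added Ctcf could not be checked. Every peak is 400 bp wide with a deposited score of 0, so a site is either in a list or not, and weaker binding that was still called as a peak cannot be seen. In bulk chromatin, fewer cells with CTCF at a site and less CTCF per cell cannot be told apart. All overlapping peaks of the 2 lists had identical start and end positions. The lists thus share a coordinate set whose making is not stated, and the kept, absent and new shares may not compare lists that were called independently.

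CTCF is a zinc-finger protein that binds a long GC-rich motif, stops loop-extruding cohesin and separates enhancers from promoters. SMARCA5, also called SNF2H, is the ATPase of ISWI complexes, which slide nucleosomes into regular arrays, and in mouse ESCs it is known to keep nucleosomes phased around bound CTCF and to help CTCF stay on its sites. During reprogramming fibroblast genes are silenced and the pluripotency genes are switched on, while promoter and enhancer chromatin is rebuilt.

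Sites at the promoters of cell cycle, signalling and chromatin genes were among those that the shRNA list lacked. The sequences at 3 of them show what these sites look like. Each is the stretch of 250 bases before the RefSeq start site (GRCm38.p6), read 5′ to 3′ in the direction of the gene, with CG dinucleotides in capitals. Cdkn2c encodes a cyclin-dependent kinase inhibitor, Fgf5 a growth factor of the primed epiblast, and Kmt2a a histone H3 lysine 4 methyltransferase.
Cdkn2c (chr4:109666757-109667006, minus strand): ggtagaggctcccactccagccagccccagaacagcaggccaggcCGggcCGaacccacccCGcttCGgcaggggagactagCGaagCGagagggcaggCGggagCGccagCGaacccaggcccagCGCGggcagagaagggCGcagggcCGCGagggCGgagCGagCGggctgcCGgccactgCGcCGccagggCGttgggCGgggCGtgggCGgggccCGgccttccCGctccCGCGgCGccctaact
Fgf5 (chr5:98253934-98254183, plus strand): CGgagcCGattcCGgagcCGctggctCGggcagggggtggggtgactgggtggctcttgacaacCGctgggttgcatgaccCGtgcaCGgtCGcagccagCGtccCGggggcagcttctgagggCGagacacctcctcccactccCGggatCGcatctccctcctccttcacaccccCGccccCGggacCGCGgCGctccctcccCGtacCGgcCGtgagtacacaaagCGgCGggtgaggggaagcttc
Kmt2a (chr9:44881290-44881539, minus strand): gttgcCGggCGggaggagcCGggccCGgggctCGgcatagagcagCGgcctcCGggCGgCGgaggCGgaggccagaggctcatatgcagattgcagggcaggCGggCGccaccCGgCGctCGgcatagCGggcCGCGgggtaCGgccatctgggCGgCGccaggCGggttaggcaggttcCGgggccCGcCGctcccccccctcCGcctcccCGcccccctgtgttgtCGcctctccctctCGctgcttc
The stretches held 29 CG dinucleotides for Cdkn2c, 24 for Fgf5 and 29 for Kmt2a, with GC contents of 77.2%, 70.8% and 76.8%. None held a match to CCNNNAGNNGGC, a 12-base pattern with 7 fixed letters from the CTCF core motif, on either strand, within these letters.

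Some other absent promoter sites did hold a match. Next come 4 stretches of 60 bases around a match that lies inside a peak absent with the shRNA, with the match in capitals. Gsto1 encodes a glutathione transferase, Dgcr8 the partner of Drosha in microRNA processing and Srsf12 a splicing factor with serine and arginine repeats.
Gsto1 (chr19:47854741-47854800, plus strand): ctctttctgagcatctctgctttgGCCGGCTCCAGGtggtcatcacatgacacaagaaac
Prr23a3 (chr9:98864651-98864710, plus strand): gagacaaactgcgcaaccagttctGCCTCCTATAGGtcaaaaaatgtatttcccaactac
Dgcr8 (chr16:18289280-18289339, minus strand): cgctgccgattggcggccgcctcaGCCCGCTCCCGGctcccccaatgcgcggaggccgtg
Srsf12 (chr4:33209236-33209295, plus strand): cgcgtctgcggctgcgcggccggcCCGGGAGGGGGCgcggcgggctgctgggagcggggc
Of the promoters whose peak was new with the shRNA, 1 held a match, upstream of 1700122E12Rik and beside Calr, which encodes the chaperone calreticulin.
1700122E12Rik (chr8:84847083-84847142, plus strand): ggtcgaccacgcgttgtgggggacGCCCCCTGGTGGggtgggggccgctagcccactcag
For comparison, the matches at Pds5b, a cohesin regulator, and Mdm2, the p53 ubiquitin ligase, lay in peaks that were kept at day 10 and present in each of the 12 other CTCF lists. The Mdm2 window held 2 matches, and the one not in capitals (ccaggaggcggc) lies just after the one in capitals.
Pds5b (chr5:150673669-150673728, plus strand): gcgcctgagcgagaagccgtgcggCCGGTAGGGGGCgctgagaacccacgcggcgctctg
Mdm2 (chr10:117710802-117710861, minus strand): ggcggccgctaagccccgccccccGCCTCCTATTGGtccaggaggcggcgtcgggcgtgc

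The match to the pattern was less frequent at absent than at kept promoter sites in the pooled counts. Start-site windows of 300 bases, 250 before and 50 from the start on, were used where at least 200 bases lay inside a peak. A match was found in 19 of 93 windows at absent peaks (20.4%, 13.5 to 29.7), in 1 of 13 windows at new peaks and in 703 of 2068 windows at kept peaks (34.0%, 32.0 to 36.1). Of all 32851 start-site windows in the RefSeq table, 8.61% held one. When the match had to lie whole inside the peak, a count added after the data were seen, it was found in 13 of 93 windows at absent peaks (14%, 8.35 to 22.5) and in 689 of 2068 at kept peaks (33.3%, 31.3 to 35.4). Among sites held by none of 3 control lists (day 0 cells, SSEA1- Thy1- cells and wild-type ESCs), 24.1% of absent windows (15.0 to 36.5) and 20.5% of kept windows (15.1 to 27.1) had a match, and 17.2% (9.64 to 28.9) and 19.9% (14.6 to 26.5) had one inside the peak. Among sites held by 1 of the 3, the shares were 12.1% of 33 absent windows (4.82 to 27.3) and 20.2% of kept windows (17.2 to 23.4). Inside the peak they were further apart, at 6.06% of absent windows (1.68 to 19.6) and 19.4% of kept windows (16.5 to 22.6). In both of these classes the intervals of absent and kept windows overlap. At absent sites the windows had a median of 29 CG dinucleotides and 69.0% GC, at new sites 25 and 68.7%, at kept sites 23 and 63.3%, and over all start sites 7 and 52.7%. Absent and kept windows were closer at equal recurrence in the control lists. Among sites held by none of the 3, the medians were 32 and 69.2% for absent and 29 and 68.3% for kept windows. Among sites held by 1, they were 29 and 69.7% for absent and 28 and 67.7% for kept windows.

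Nearly all peaks of the list with OSKM and Ctcf were also in the list with Smarca5 shRNA. The list with Smarca5 shRNA held 51635 peaks and the list with OSKM and Ctcf alone 52252. With the shRNA 897 peaks were absent (1.72% of 52252), 280 were new (0.542% of 51635) and 51355 were kept. These shares, 1.72% and 0.542%, are the background for every other count of absent and new sites at day 10. By chromosome, the absent share ran between 1.04% on chromosome 18 and 2.21% on chromosome 11 among the autosomes, and it was 1.37% on chromosome X. On chromosome Y 2 of 11 sites were absent (18.2%, 5.14 to 47.7). Losses were scattered: 867 absent peaks had a kept peak on both sides along the list, and 15 pairs of absent peaks were neighbours. The longest run of neighbouring absent peaks was 2. Of sites whose next peak lay under 10 kb away 1.92% were absent (1.76 to 2.09), of those at 10 to 50 kb 1.51% (1.35 to 1.68), and of those over 50 kb away 1.58% (1.26 to 1.97).

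The targeted gene and the added factors kept their CTCF sites. Within 10 kb of Smarca5 there was 1 peak in each day 10 list. Ctcf had 4 peaks with the shRNA, 4 without it and 3 with OSKM alone, and Sox2 had 3, 3 and 3. Klf4 had 1 peak in each list, and Myc had 3 with the shRNA, 3 without it and 4 with OSKM alone. Pou5f1, which encodes Oct4, had 4 peaks with the shRNA, 3 without it and 2 with OSKM alone.

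Reading the 3 day 10 lists together, 42899 sites were in all of them. A further 8456 were in both lists with added Ctcf and not in the OSKM list, whose comparison with the added Ctcf list had 17.3% new and 0.33% absent sites. Of the 897 absent sites, 583 were in the list with OSKM and Ctcf only and 314 were also in the OSKM list, so 35.0% of absent sites were in the OSKM list, against 82.7% of all sites of the list with OSKM and Ctcf. As a rate, 0.727% of the sites shared with OSKM were absent (0.651 to 0.811) and 6.45% of those not in the OSKM list (5.96 to 6.97). The new sites included 194 found with the shRNA only and 86 that the OSKM list also had. The OSKM list held 143 sites that were missing with added Ctcf, and these 86 make up 60.1% of them (52.0 to 67.8). Both comparisons use the list with OSKM and Ctcf, so the 143 and the 86 rest on the same calls of that list.

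How many cell types held a site went together with its absence. Recurrence was the number of 3 control lists with independent coordinates (day 0 cells, SSEA1- Thy1- cells and wild-type ESCs) that held the site. At recurrence 0, 517 of 3028 sites were absent with the shRNA (17.1%, 15.8 to 18.5). The share was 3.21% at recurrence 1, 0.551% at recurrence 2 and 0.0418% at recurrence 3, where 11 of 26308 sites were absent. Over the 12 CTCF lists other than those of day 10, the absent share was also highest at sites found in none and lowest at sites found in all: 416 of the 1847 sites found in none of them were absent (22.5%), and 3 of the 16588 sites found in all 12 (0.0181%). New sites had a similar makeup, with 148 at recurrence 0, 91 at recurrence 1, 37 at recurrence 2 and 4 at recurrence 3.

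**Figure D1:**
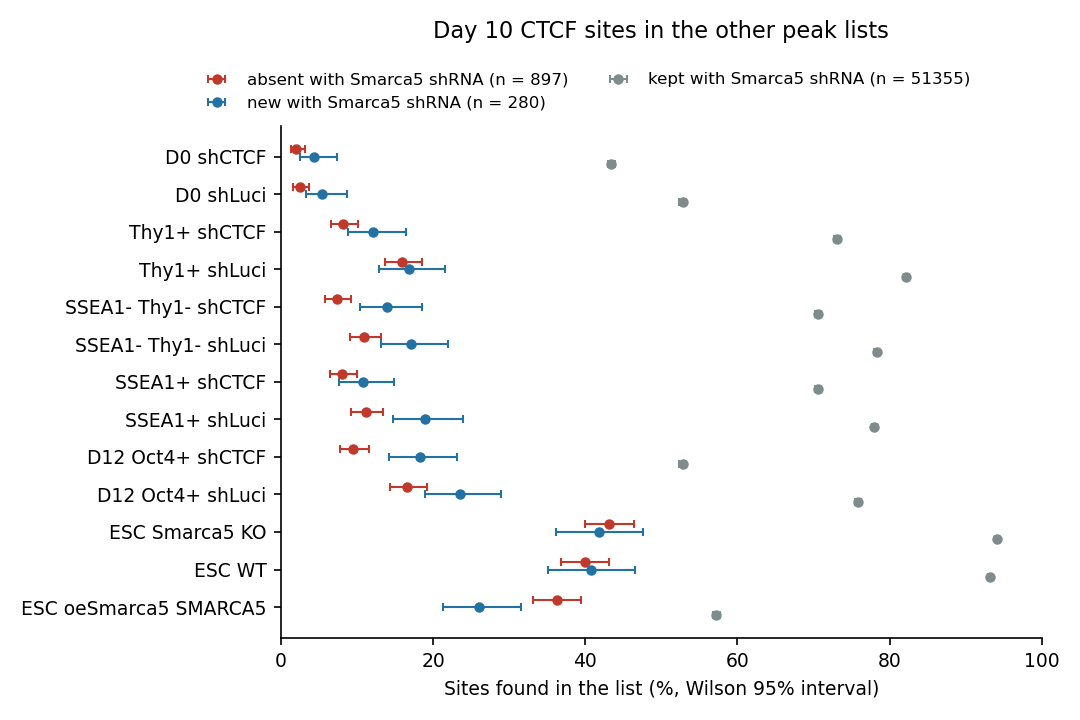
Share of day 10 CTCF sites found in each of 13 other lists (horizontal axis, percent, with Wilson 95% intervals), for sites absent, new and kept with Smarca5 shRNA. Absent and new sites lie far below kept sites in every CTCF list, for example 2.45%, 5.36% and 52.8% in day 0 cells with the luciferase shRNA (D0 shLuci), and lie closest to them in the SMARCA5 list.

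Absent and new sites were seldom fibroblast sites. Day 0 cells with the luciferase shRNA held 22 of the 897 absent sites (2.45%, 1.63 to 3.69), 15 of the 280 new sites (5.36%, 3.27 to 8.65) and 52.8% of the kept sites. Thy1+ cells, which still carry a fibroblast surface marker, held 15.9% of the absent, 16.8% of the new and 82.2% of the kept sites. The SSEA1+ cells, further along the path, held 11.1% of the absent, 18.9% of the new and 78.0% of the kept sites. Day 12 Oct4-GFP+ cells held 16.6% of the absent, 23.6% of the new and 75.9% of the kept sites, each with the luciferase shRNA. Wild-type ESCs, whose list is the longest of the controls with 83173 peaks, held 39.9% of the absent (36.8 to 43.2), 40.7% of the new (35.1 to 46.6) and 93.1% of the kept sites.

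Where the sorted cells did hold an absent site, they often lost it with an shRNA against Ctcf. With that shRNA 18.9% of all control sites were absent in the Thy1+ population, 18% in the SSEA1- Thy1- population, 18% among SSEA1+ cells, 41.4% on day 12 and 26.7% on day 0. Of the Thy1+ control sites, those absent at day 10 with Smarca5 shRNA were kept under Ctcf shRNA in 38.5% of cases (30.9 to 46.6, 55 of 143) and those kept at day 10 in 87.3%. In SSEA1- Thy1- cells the corresponding shares were 57.1% (47.3 to 66.5) and 88.5%, and in SSEA1+ cells 60.0% (50.2 to 69.1) and 89.2%. In day 12 cells they were 42.3% (34.6 to 50.3) and 66.5%, and in day 0 cells 36.4% (19.7 to 57.0, 8 of 22) and 76.8%. The order was thus the same in all 5 populations, whose lists share no ChIP sample with day 10. These lists have many sites in common, so they are not 5 independent checks. The shares were not compared at equal recurrence. The day 3 Thy1+ samples have labels that contradict each other on which of them received Ctcf shRNA.

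Absent sites lay at gene starts more often than kept or new sites did. A RefSeq start site lay within 1 kb of the peak centre at 316 of 881 absent sites (35.9%, 32.8 to 39.1), at 38 of 272 new sites (14%, 10.4 to 18.6) and at 5916 of 49828 kept sites (11.9%, 11.6 to 12.2). Chromosome 18 is outside the start-site table and these counts. The start-site table is incomplete elsewhere too, with a start for 17492 of 21900 protein-coding genes. A site at a start that it lacks counts as not at a start, and its distance to a start comes out too long. Put the other way, 5.07% of sites at a gene start were absent with the shRNA (4.55 to 5.64), 1.50% of those elsewhere inside a protein-coding gene, and 1.01% of those outside protein-coding genes. The median distance to a start was 7581.5 bp for absent, 16355 bp for new and 17467 bp for kept sites. Of the 316 absent sites at a start, 89 had their centre upstream of it and 227 at or downstream of it. The split was not counted for kept sites, so it cannot be read as particular to absent ones.

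**Figure D2:**
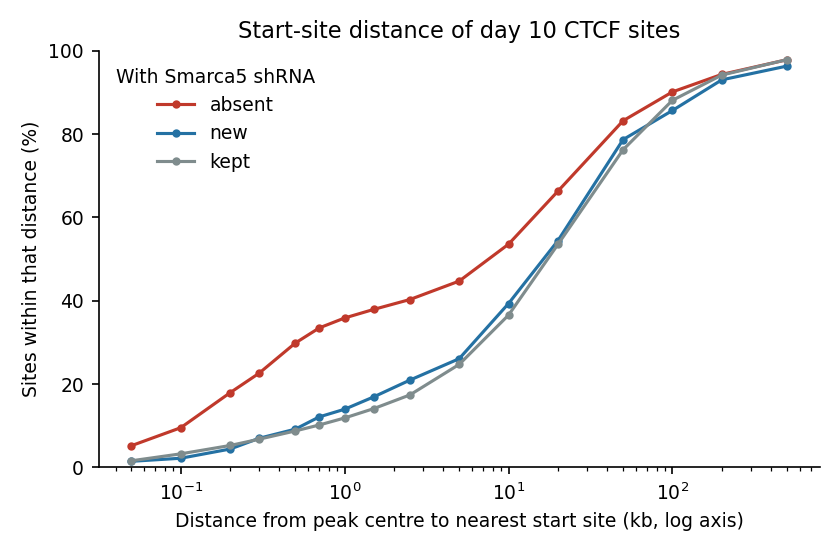
Cumulative percent of sites (vertical axis) within a given distance of the nearest RefSeq start site (horizontal axis, kb, log scale), for 881 absent, 272 new and 49828 kept sites. The absent curve separates from the others below 1 kb, where it reaches 35.9% against 14% for new and 11.9% for kept sites.

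The excess at gene starts was also seen among sites of equal recurrence, although it was smaller as a ratio. At recurrence 0, 24.0% of sites at a start were absent (21.3 to 26.9) and 14.5% of other sites (13.0 to 16). At recurrence 1 the shares were 4.30% (3.53 to 5.24) and 2.90% (2.52 to 3.32), and at recurrence 2 they were 0.963% (0.539 to 1.72) and 0.515% (0.403 to 0.659), with overlapping intervals. At recurrence 3, 2 of 2054 sites at a start were absent and 9 of 23488 others. Among sites that the OSKM list also held, 2.23% of those at a start and 0.559% of the others were absent. Among sites not in the OSKM list the values were 12.9% and 5.00%.

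**Figure D3:**
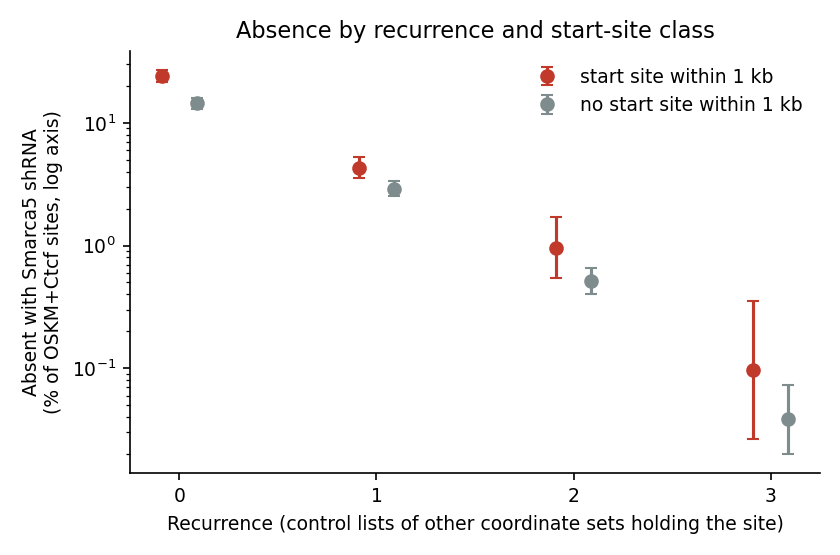
Percent of OSKM and Ctcf sites absent with Smarca5 shRNA (vertical log axis, with Wilson 95% intervals) by recurrence in 3 control lists (horizontal axis), for sites with and without a start site within 1 kb. Absence stands at 24.0% and 14.5% at recurrence 0 and at 0.0974% and 0.0383% at recurrence 3, and the intervals of the classes overlap at recurrence 2 and 3.

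The other comparisons of the series had lower shares of gene starts among their absent sites. In Smarca5 knockout ESCs, where 2.88% of wild-type sites were absent and 9.81% of knockout sites were new, 10.3% of absent, 10.4% of new and 8.82% of kept sites lay within 1 kb of a start. For added Ctcf on OSKM, 12.9% of absent, 18.9% of new and 10.9% of kept sites did. With Ctcf shRNA in Thy1+ cells, 19.3% of absent and 8.96% of kept sites did, and in the other 4 populations 6.30% to 8.85% of absent and 6.59% to 8.64% of kept sites. The difference between these comparisons was not tested, and their lists differ in length and coordinate set.

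In all, 317 protein-coding genes had an absent peak and 37 a new peak within 1 kb of a start, beside 5186 genes with a peak there in the shRNA list and 5452 in the list with OSKM and Ctcf. Ordered by the number of other CTCF lists that held the peak, the absent starts began with Nectin2, a cell adhesion molecule, whose peak was in 11 of the 12 other lists but not in the OSKM list. Next came Gsto1 and Dnajc1, an endoplasmic reticulum co-chaperone, with 10 lists each, and Chordc1, an HSP90 co-chaperone, with 9. All 3 of these peaks were also in the OSKM list, and after its loss Chordc1 had no CTCF peak within 10 kb. The start peak of H3f3c, a histone H3.3 gene, was in 8 other lists. Slc17a5, the lysosomal sialic acid transporter, and Acvr2b, an activin receptor, had peaks in 7 lists and Bloc1s5, of the lysosome-related organelle complex, in 6. Coa5 and Unc50, whose starts lie close together, shared 1 absent peak, centred 193.5 bp downstream of the Unc50 start, Hif1a, the oxygen-regulated transcription factor, lost 1 at 415.5 bp downstream of its start, and Antkmt lost 1. The peaks at these 4 genes were in 5 lists each. Apart from Nectin2 and Dnajc1, SMARCA5 had a peak in ESCs at each of these sites, which were picked for being in many lists. Over all sites at a start, 158 of 4871 with a SMARCA5 peak in ESCs were absent (3.24%, 2.78 to 3.78). Of those without one, 158 of 1361 were absent (11.6%, 10.0 to 13.4).

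The new start sites began with Idh1, the cytosolic isocitrate dehydrogenase, whose peak 628.5 bp upstream was in 10 other lists but neither ESC list. The kinase Tlk1 and Calr followed with 8 lists each, and the Calr site was also in the OSKM list. Olfr38, an olfactory receptor gene, had 7, and the peak between Ormdl2 and Sarnp had 4.

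Pou5f1, the gene of the pluripotency factor Oct4, had a new peak. It lay 336.5 bp upstream of the start (chromosome 17, 35508271 to 35508670), was in the list with OSKM, Ctcf and Smarca5 shRNA, and was in neither the list with OSKM and Ctcf nor the list with OSKM alone. Wild-type and Smarca5 knockout ESCs both had it, SMARCA5 had a peak there in ESCs, and 4 of the 12 other CTCF lists held it. With 1 ChIP sample behind the shRNA list, this call has no replicate check.

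Of the 16 gene lists, 8 had a member with an absent peak within 10 kb. As background, 958 of 16528 protein-coding genes with a peak there had an absent one (5.80%) and 253 of 16468 a new one (1.54%). The chromatin remodeller list outside the ISWI family had 6 of 31 genes with an absent peak (19.4%) and 4.29% of its distinct peaks absent, beside 1.95% near all coding genes. The genes were Arid1b, Smarcc1, Smarce1 and Pbrm1, subunits of the BAF and PBAF complexes, Chd3, a NuRD ATPase, and Srcap, which exchanges histone H2A.Z. The absent peak lay 264.5 bp upstream of the Arid1b start, 143.5 bp downstream of the Pbrm1 start and 572.5 bp downstream of the Srcap start. Inside Smarcc1 (chromosome 9, 110166726 to 110167125) and Smarce1 (chromosome 11, 99230231 to 99230630) the absent sites were in the wild-type ESC list, had a SMARCA5 peak in ESCs and were absent from the Smarca5 knockout list too. Arid2, Chd2 and Pbrm1 had a new peak, the last 111754 bp downstream of its start.

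**Figure D4:**
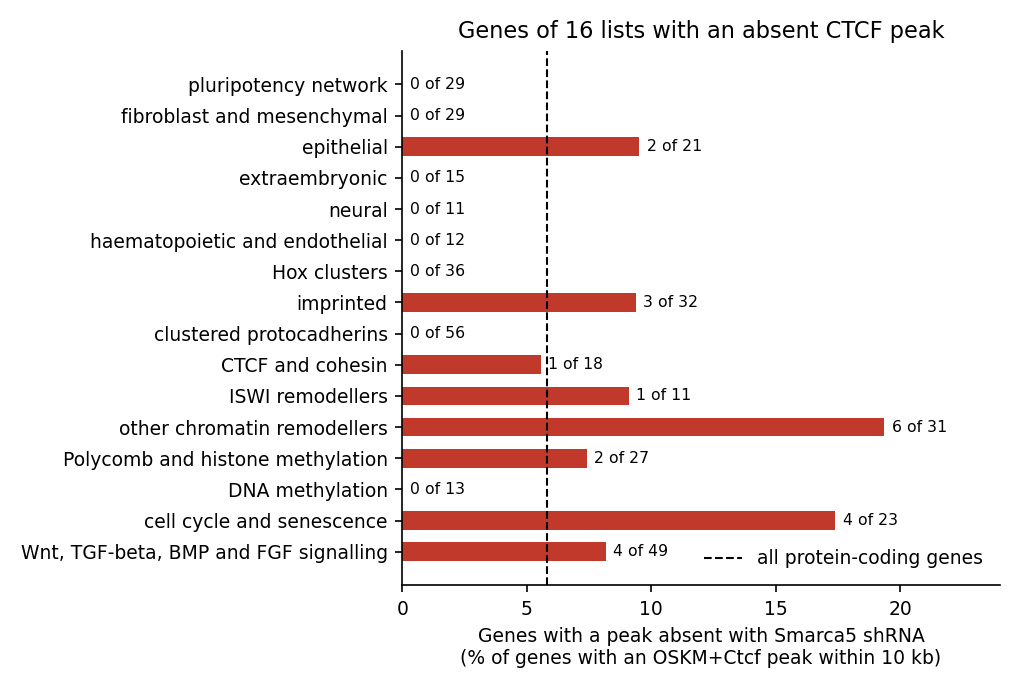
Percent of genes in 16 lists that had a CTCF peak within 10 kb absent with Smarca5 shRNA (horizontal axis, of the genes with a peak in the list with OSKM and Ctcf), with counts beside the bars. The dashed line is the value over all protein-coding genes, 5.80%, and 8 lists stand at 0.

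Of the cell cycle and senescence genes, 4 of 23 had an absent peak (17.4%), and 5.97% of their distinct peaks were absent. They were Cdk2 and Cdk6, cyclin-dependent kinases, Cdkn2c, and Rb1, the retinoblastoma protein that holds cells in G1. The Cdk2 peak lay 131.5 bp downstream and the Cdkn2c peak 139.5 bp upstream of the start, and neither was in any of the 12 other CTCF lists or in the OSKM list. The Cdk6 peak, 1169.5 bp upstream of the start, and the Rb1 peak were in none of the 12 lists either, while the Rb1 peak was in the OSKM list. Among signalling genes 4 of 49 had an absent peak. They were the receptors Bmpr2 and Tgfbr1, the transducer Smad3, and Fgf5. The Fgf5 peak (chromosome 5, 98253914 to 98254313) had its centre 70.5 bp upstream of the start, was also in the OSKM list and was the only peak within 10 kb, so that Fgf5 had 0 peaks with the shRNA and 1 without it. The Tgfbr1 peak lay 323.5 bp downstream of its start and was in the OSKM list as well.

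Among histone methylation genes 2 of 27 had an absent peak. They were Ezh2, the catalytic subunit of Polycomb repressive complex 2, with a peak 635.5 bp downstream of its start, and Kmt2a, with 1 at 44.5 bp upstream. New peaks lay near Jarid2, a Polycomb complex 2 cofactor, 13747.5 bp downstream of its start, near Kdm2b, which recruits a Polycomb repressive complex 1 to CpG islands, and near the methyltransferase gene Kmt2d. Imprinted genes had 3 of 32 members with an absent peak. These were Dlk1, 934.5 bp downstream of the start and in 3 other lists, Kcnq1, inside the gene (chromosome 7, 143133522 to 143133921), and Peg3, 1145.5 bp downstream of the start. The epithelial genes were Dsp, which encodes desmoplakin, and Ovol2, a transcription factor that restrains mesenchymal change, 2 of 21. Yy1, a zinc-finger protein that bridges promoters and enhancers, was the only member of 18 in the CTCF and cohesin list, and Baz2b, an accessory subunit with a bromodomain, the only member of 11 in the ISWI list. Myt1l, a neuronal transcription factor, had a new peak in its span. Of distinct peaks, 1.98% were absent near histone methylation, 2.08% near CTCF and cohesin, 2.45% near signalling and 2.5% near ISWI genes. These shares lie near the 1.95% for all coding genes, so the members named do not set these lists apart. The shares were 2.86% for epithelial and 3.37% for imprinted genes, from few absent peaks.

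No member of the other 8 lists had an absent peak. Their distinct peaks numbered 79 with the shRNA and 77 without it near pluripotency genes, where Pou5f1 and Jarid2 had the new ones, and 79 in both near fibroblast genes. The counts were 37 and 37 for extraembryonic, 38 and 37 for neural, and 33 and 33 for haematopoietic genes. They were 38 and 38 for the Hox clusters, 60 and 60 for the clustered protocadherins and 43 and 43 for DNA methylation genes. With 1.95% of peaks near coding genes absent, a count of 0 among 33 to 79 peaks sets each of these lists little apart.

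Few genes had more than 1 absent peak. Gse1, a coregulator gene, had 3, with 32 peaks with the shRNA and 35 without it. With Gse1, 32 coding genes had at least 2. In the order of the fixed naming rule the others began with Abcc4, Agap1, Arhgef28, B4galnt3, Bsn and Camta1. Cpeb2, an RNA-binding protein, and Erbb2, a receptor tyrosine kinase, each had 1 peak with the shRNA and 3 without it, and Gpx6 had 0 and 2. In all, 77 coding genes had no peak within 10 kb with the shRNA and at least 1 without it, and 17 the reverse. Sfi1, which encodes a centriolar protein, had 5 new and 1 absent peak, so 22 peaks with the shRNA, 18 without it and 23 with OSKM alone, and all 5 new peaks were in the OSKM list. Its span (chromosome 11, 3131850 to 3203347) held 15 peaks in Smarca5 knockout ESCs and 18 in wild-type ESCs. Cfap43, Eif4enif1, Gm51877 and Zfp993 had 2 new peaks each, and those counted for Eif4enif1 and Gm51877 are peaks of the Sfi1 span counted again.

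The state of a site in Smarca5 knockout ESCs went together with its state at day 10. Of the sites of the list with OSKM and Ctcf that wild-type ESCs had and knockout ESCs lacked, 33 of 348 were absent with Smarca5 shRNA (9.48%, 6.83 to 13.0). Of the sites that both ESC lists had, 325 of 47844 were absent (0.679%, 0.610 to 0.757). Sites that only the knockout list held were absent in 7.15% of cases (5.62 to 9.06), and sites in neither ESC list in 14.9% (13.7 to 16.2). Among sites whose only control list was the wild-type ESC list, 20 of 141 that the knockout lacked were absent at day 10 (14.2%, 9.37 to 20.9), and 257 of 8284 that it kept (3.10%, 2.75 to 3.50). Against sites of both ESC lists, absence at day 10 was thus more frequent at sites that the knockout lost and at sites that it gained. Against sites in neither ESC list, which wild-type ESCs also lacked, it was less frequent at the gained sites (7.15% against 14.9%). Sites gained in the knockout were not compared at equal recurrence. Most absent sites, 477 of 897, were in neither ESC list. New sites were in both ESC lists in 101 cases, in the wild type only in 13, in the knockout only in 16 and in neither in 150.

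**Figure D5:**
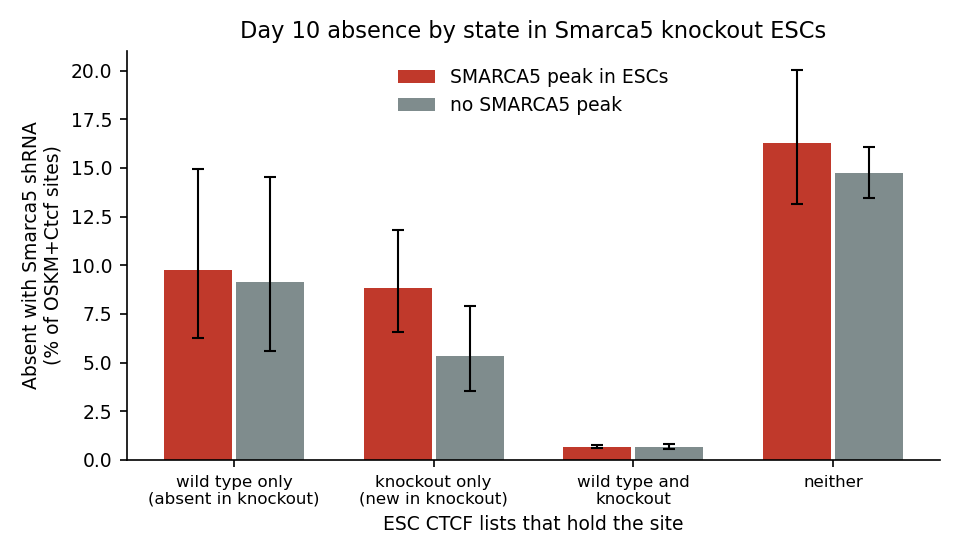
Percent of OSKM and Ctcf sites absent with Smarca5 shRNA (vertical axis, bars with Wilson 95% intervals) by the ESC CTCF lists that held the site, with and without a SMARCA5 peak in ESCs. Sites in both ESC lists stand at 0.681% with SMARCA5 and 0.677% without it, and sites in the other 3 classes above 5%.

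Sites with and without a SMARCA5 peak in ESCs had similar absent shares within most classes of ESC state. Over all sites, 1.09% of those with a SMARCA5 peak (0.982 to 1.22) and 2.54% of those without one (2.34 to 2.75) were absent. Within the sites of both ESC lists the shares were 0.681% and 0.677%. Within the sites that only wild-type ESCs held they were 9.78% (6.28 to 14.9) and 9.15% (5.62 to 14.5), and within those of neither list 16.3% and 14.7%. Only among sites found in the knockout alone were they further apart, at 8.83% (6.55 to 11.8) with SMARCA5 and 5.31% (3.54 to 7.91) without it, with overlapping intervals. SMARCA5 was mapped as an overexpressed tagged protein in ESCs, and its binding in day 10 cells was not measured.

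Of the 348 sites that wild-type ESCs had and knockout ESCs lacked, 184 had a SMARCA5 peak in ESCs. Among the 33 of these that were absent in both systems, a similar share, 18, had a SMARCA5 peak. The one found in the most lists, 11 of the 12 other CTCF lists, lay 14644.5 bp downstream of the start of Gpx6, a glutathione peroxidase gene (chromosome 13, 21326648 to 21327047), and was also in the OSKM list. The next lay 5023.5 bp upstream of the start of Serpinb1c (chromosome 13, 32902964 to 32903363, 9 lists), 17421.5 bp downstream of the start of Prf1, the perforin gene of cytotoxic lymphocytes (chromosome 10, 61315058 to 61315457, 8 lists), and 1392.5 bp upstream of Kifc1, a kinesin gene (6 lists). Further sites lay near Ano2 (6 lists), Krt77 (4 lists), Phactr4 (4 lists) and Prss36 (3 lists). Of the 16 new sites that knockout ESCs had and wild-type ESCs lacked, those in the most lists had Zfp982 (6 lists), Olfr1358 (4 lists) and Snx3 (2 lists) as the nearest coding gene in the start-site table. The Snx3 site lay 238.5 bp downstream of the start of this sorting nexin gene. The sites 1229.5 bp downstream of the Gm52310 start and 7654.5 bp downstream of the Pla2g4d start were in 2 lists, as was a site on chromosome 4 (6436537 to 6436936) whose nearest coding start in the table, that of Gm11780, was far away. Those closest to the starts of Ihh, the Indian hedgehog ligand, and Adcy10 were in 1 list.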

How the data were processed

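CTCF ChIP-seq peak lists from day 10 reprogramming cells were compared. Per the submitters' processing notes, the build was mm10 (GRCm38) and the tools, listed there without versions or roles, were FastQC, Trim Galore, Bowtie2, Picard, SAMtools, MACS2, HOMER, bedtools and deepTools. Each deposited file lists intervals of 400 bp, and the score the authors give every peak is 0, so no peak could be ranked or filtered by strength. The comparison group's 2 samples have 1 list, and how they were pooled, like sequencing depth, is not given in the sources used here. The 28 input samples were not used here.

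Samples were grouped by title. The Thy1+ day 3 samples have descriptions and source names that contradict their titles on which received Ctcf shRNA. Sites were shared at 1 bp of overlap, with a reciprocal overlap of 50% and identical coordinates as alternatives. Shares have Wilson 95% intervals, which cover counting error only.

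Start sites and their sequences came from RefSeq tables of GRCm38.p6, with 32851 starts on 20 chromosomes and without chromosome 18, and offsets run from a start to the peak centre. Gene spans were widened by 10 kb, and a peak near several genes counts for each. The 16 gene lists were matched by symbol, with Nespas found as Gnasas1. Members and lists were chosen with earlier results of these data known, and recurrence classes within the start-site and ESC comparisons were added after seeing the data.

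Genes were named by rule: each list member with an absent or new peak; the 12 coding genes with an absent, and 6 with a new, peak within 1 kb of a start found in the most other CTCF lists; the 10 with the most absent and 5 with the most new peaks, ties by name; up to 8 absent sites that Smarca5 knockout ESCs also lacked and that had SMARCA5; and up to 8 new sites that only knockout ESCs had. Printed sequences are those of list members and motif matches among these windows. The overlap counts, over all sites and by start-site class, were tested on simulated lists with known losses. The simulated peaks were shifted in position, unlike those of the 2 real lists. How sites were assigned to starts was not tested. Python 3.11.15, NumPy 2.4.6 and matplotlib 3.10.9 were used.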

Additional observations from a re-analysis of the deposited data

Results flagged for a closer look

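The number of CTCF peaks changed in opposite directions in the 2 Smarca5 comparisons. It changed by -1.18% at day 10 with Smarca5 shRNA, to 51635 peaks against 52252 without it. In ESCs it changed by 7.69%, to 89567 in the Smarca5 knockout against 83173 in wild type. Each of these groups has 1 list, so this difference was not tested, and cell type, kind of Smarca5 loss and added Ctcf cannot be told apart.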

How the results depend on the processing

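A reciprocal overlap of 50% or identical coordinates could not change the shares of absent (1.72%) and new (0.542%) sites, since overlapping peaks of the 2 lists have the same positions. The shares moved by less than their intervals on autosomes, without chromosome X, with overlapping lines merged, or, for new sites, without the peaks near Sfi1. At recurrence 0 the absent share was 19.5% when all 6 control lists were counted. A reciprocal overlap of 50% gave 30.8% of absent sites in wild-type ESCs, 1.96 points more absence without than with SMARCA5 (main value 1.44), and 1.03 points more absence at Thy1+ sites lost with Ctcf shRNA (main value 1.46). Within sites of both ESC lists the SMARCA5 difference was -0.00457 points. Lists called separately seldom have the same coordinates, so identical start and end, which by construction drops most matches between sets, gave 1.81% absent at recurrence 0 and 0.334% of absent sites in wild-type ESCs. It gave a difference by knockout fate of -0.194 points (main value 8.80), and differences by Ctcf shRNA fate of 2.18 points in Thy1+, 1.15 in SSEA1- Thy1-, 2.37 in SSEA1+ and 0.0488 in day 12 cells. Start sites lay within 2.5 kb of 40.3% and within 5 kb of 44.7% of absent sites. The start-site difference of 3.80 points was 9.53 at recurrence 0, 1.41 at recurrence 1, 1.67 among OSKM sites and 7.93 among other sites. The spacing difference was 0.723 points for classes under 5 and over 25 kb (main value 0.342). List members with an absent peak numbered 23, and 42 with spans widened by 50 kb. Those with a new peak numbered 8, and 14 with spans widened by 50 kb, 5 with 2.5 kb and 5 with none. In the central 200 bases, 10.8% of absent and 28.2% of kept windows held the motif (12.1% and 15.8% at recurrence 0). A stricter score was not run because every score is 0, and samples were not left out because each group has 1 list. No paired analysis was possible because the shRNA group has 1 sample and the lists hold no replicates.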

Other observations

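MicroRNA genes were looked at after the other results were known. Of 609 hairpins with a peak within 10 kb in the list with OSKM and Ctcf, 19 had an absent peak (3.12%), beside 5.80% of protein-coding genes with such a peak. These shares are unlike, since the span of a coding gene is longer than a hairpin and can take in more peaks. The absent share of peaks near hairpins was not counted, so hairpins cannot be called spared. Of all 1005 hairpins, with or without a peak nearby, 9 had a new peak with Smarca5 shRNA. Of the protein-coding genes with a peak in the shRNA list, 253 of 16468 had a new one (1.54%), which is a different base. The hairpins named next are thus examples and set microRNA genes apart in no way. Mirlet7g, of the let-7 family that Lin28 restrains in pluripotent cells, had 1 peak with the shRNA and 0 without it. Mir488 had 0 with the shRNA and 1 without it. Mir130b and Mir301b, which lie together on chromosome 16, had 3 with the shRNA and 2 without it, from 1 new peak. Mir192 and Mir194-2 had 2 and 3, and the hypoxia-regulated Mir210 had 3 and 4. No replicate list bears on these calls.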
